A study of Mus musculus with 4 samples.

Results

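The odorant receptor genes of the large cluster on mouse chromosome 2 were taken as every gene whose symbol is Olfr followed by a number from 987 to 1318, with no pseudogene suffix. The rule used names alone and found 241 genes, among 1100 receptors named Olfr plus digits and 23337 genes in all. Every one of the 241 genes was placed on chromosome 2, so the label held: 205 lay in a first stretch of 4.96 Mb at chr2:85330779-90292841 and 36 in a second of 0.929 Mb at chr2:111230360-112159157, 20.9 Mb further along (mm10, GRCm38). Of these genes, 239 were placed with GENCODE M21, and Olfr1182 and Olfr1213 with RefSeq on GRCm38.p6.

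Odorant receptors are G protein-coupled receptors that cross the membrane several times, and they bind volatile ligands on the cilia of olfactory sensory neurons. Their genes sit in clusters on many chromosomes, and a mature neuron expresses a single allele of a single receptor gene, so the RNA of any receptor comes from a small subset of neurons. Silent receptor genes are packed in heterochromatin. The receptor then signals through the G protein subunit Gnal and the adenylyl cyclase Adcy3 to the cyclic nucleotide-gated channel, and olfactory marker protein (Omp) accumulates as the neuron matures.

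RNA was sequenced from Tomato-positive cells sorted from the olfactory epithelium of 4 mice, 1 mouse per sample, after the drug methimazole (50 mg/kg) had destroyed the epithelium and 4 weeks had been allowed for regeneration. All 4 mice carried K5Cre, a Cre recombinase driven by the keratin 5 promoter, which in this epithelium is active in the horizontal basal stem cells, and R26Ai9, the Cre-dependent Tomato reporter. Controls were K5Cre;Lmnb1fl/+, so that their sorted cells were Lmnb1+/- and not wild type, and mutants were K5Cre;Lmnb1fl/fl, so that their sorted cells were Lmnb1-/-, where Lmnb1 encodes the nuclear lamina protein lamin B1. The epithelium was mosaic, and Tomato-negative cells were not sorted. The sort was on the reporter and not on lamin B1, so some sorted mutant cells could have kept Lmnb1. Strain was given as mixed and age was not used here. Control 1 and mutant 1 formed experimental group 1, and control 2 and mutant 2 formed experimental group 2. Pairs of values give experimental group 1 first, and runs of 4 counts are in the order control 1, control 2, mutant 1 and mutant 2. Mice of an experimental group shared parents, sex, age, treatment and library work. Between the 2 groups, per the labels, parents, sex, age and treatment differed, and the paper also names batch.

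Gene counts summed to 14833396 to 23704638 per library. The library of mutant 1 stood apart: 39.41% of its uniquely aligned reads lay outside genes, against 22.1% to 24.9% in the others, and 1603 genes had no count in it, against 5173 to 6053. Over 3416 genes silent in the other 3 libraries, the median density in mutant 1 was 1.79 counts per kb of exon. The same measure was 0 in control 1, control 2 and mutant 2, over 1153, 1200 and 1183 genes. Those sets hold only genes without a count in mutant 1, so the densities do not compare like genes. For sums, shares and calls that rest on mutant 1, a value with 1.79 counts per kb subtracted from mutant 1 is given too. This alternative was chosen after the data were seen, and it removes counts from mutant 1 alone. Lower sums and fewer detected members in mutant 1 are therefore built into it. Lmnb1 itself had 477 and 395 counts in the controls and 326 and 149 in the mutants, and both mutants lay below both controls in counts per 1000000 gene counts of the library (CPM). The genotype difference on the log2 scale was -0.72 ± 0.31 (SE, n = 2 per genotype, adjusted p = 0.195, edgeR). The floxed part is exon 2, and counts over the whole gene can still hold reads from the exons that remain. By PCR of later exons in cDNA, the paper reported depletion of the Lmnb1 transcript in sorted mutant cells. Why the counts fell less was not tested.

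A conserved stretch of the coding sequence was found by searching for its amino acid pattern, so part of the likeness between members follows from the search. At 30 bases the stretch is shorter than a read and does not show how reads can be assigned. It lies at the end of the third membrane-spanning segment, where receptors of this family carry the D-R-Y motif. The stretch of 30 bases was found in 193 of 239 members, in 130 distinct forms. Of the 11 members called lower in mutants by the test described later, 10 had it, and Olfr1110 did not match the searched pattern. The stretches of 6 of these genes are given 5′ to 3′ on the coding strand of GRCm38, and capitals mark the 3 codons of the D-R-Y motif.
Olfr1112, chr2:87192061-87192090, plus strand: atggcttatGACAGATATgttgctatttgt
Olfr1241, chr2:89482759-89482788, minus strand: atggcctatGATCGTTATgtggccatctgt
Olfr1280, chr2:111315832-111315861, plus strand: atggcctatGACCGGTATgtggccatctgc
Olfr1247, chr2:89609726-89609755, minus strand: atggcctatGATCGCTATgtggccatctgt
Olfr1198, chr2:88746515-88746544, minus strand: atggcctatGATCGGTACgtagccatttgc
Olfr1290, chr2:111489776-111489805, minus strand: atggcttatGATCGCTATgtggccatctgc

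Over the whole coding sequence, the median member shared few exact runs of read length with other genes. Coding lengths ran from 909 to 1038 bases, with a median of 936. Of the 239 members in GENCODE, 161 shared at least 1 window of 50 coding bases, the read length, with the transcript of another gene. The median member shared 5.62% of its windows, 10 members shared over 50%, and Olfr1316 shared the most, 79.7%. Reads with more than 1 alignment were set aside in the counting, so counts of those 10 members in particular are uncertain.

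RefSeq upstream windows, which run from 250 bases before to 50 after an annotated start, were found for 200 members, but 145 of 200 windows with a known distance began at the start codon and so held no promoter. Only 17 windows, of 15 members, lay more than 300 bases before the start codon. Of the members lower in mutants, Olfr1110 and Olfr1290 had such a window, and the bases that precede the GENCODE gene are given 5′ to 3′ (GRCm38.p6, RefSeq). Capitals mark TAATTA, a core bound by homeodomain proteins.
Olfr1110, chr2:87140301-87140483, minus strand: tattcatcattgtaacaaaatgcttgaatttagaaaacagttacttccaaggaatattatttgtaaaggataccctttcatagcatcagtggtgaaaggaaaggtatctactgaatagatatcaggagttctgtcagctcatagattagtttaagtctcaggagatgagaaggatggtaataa
Olfr1290, chr2:111493830-111494065, minus strand: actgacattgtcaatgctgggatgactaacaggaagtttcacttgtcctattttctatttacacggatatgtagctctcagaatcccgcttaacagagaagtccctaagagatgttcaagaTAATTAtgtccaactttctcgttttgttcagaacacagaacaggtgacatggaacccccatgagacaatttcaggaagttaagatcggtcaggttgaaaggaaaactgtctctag
Searched on both strands of whole 300-base windows, TAATTA was in 7 of the 17 member windows (41.2%) and in 5.29% of all 32851 RefSeq windows. The second form TAATGA was in 6 of 17 (35.3%) and in 9.78% of all. The core CCCNNGGG, of the kind bound by the O/E (Ebf) factors, was in 4 of 17 (23.5%) and in 13.7% of all. These are descriptions of few windows, and a match is not a binding site.

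Summed over the 241 genes, receptor RNA was lower in the mutant than in the control of both experimental groups. The members held 10712 and 8609 counts in the controls and 6984 and 2281 in the mutants. Scaled to the library total, this was 452 and 403 CPM in the controls and 315 and 154 CPM in the mutants, so that both mutants lay below both controls. The log2 ratio of mutant to control was -0.52 in experimental group 1 (95% counting interval -0.56 to -0.48) and in the other group -1.39 (-1.46 to -1.32). These intervals cover counting error only and not differences between mice, since each ratio is of 1 mutant to 1 control. Reads of a library without molecular identifiers can be copies of the same molecule, so even the counting error may be larger. An exact permutation test over 2 against 2 mice cannot reach 0.05, and none is given for the sum. With the background density taken from mutant 1, the ratio in experimental group 1 was -0.80. In bulk samples, fewer neurons with a receptor and less receptor RNA per neuron cannot be told apart.

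Set against all receptors, the share of the members in mutant 1 moved with a single gene elsewhere. They made up 20.0% of receptor counts in control 1 (95% Wilson interval 19.6 to 20.3), 23.4% in control 2 (22.9 to 23.8), 14.9% in mutant 1 (14.6 to 15.3) and 22.0% in mutant 2 (21.2 to 22.8), and they were 21.9% of the receptor genes. The Wilson intervals cover counting error within a single mouse and not differences between mice. Olfr613, a receptor on chromosome 7, held 4994 and 1853 counts in the controls and 11740 and 1102 in the mutants, or 25.1% of all receptor counts in mutant 1. Without Olfr613, left out after its counts were seen, the share of the members was 22.0% in control 1 and 19.9% in mutant 1. It was 24.6% in both samples of experimental group 2. With background subtracted, the share in mutant 1 was 19.5%. The other receptors, Olfr613 left out, then had log2 ratios of -0.33 and -1.39, beside -0.52 and -1.39 for the members.

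Markers of mature neurons fell as well. Of 18 listed markers, which include Omp and the channel subunits Cnga2, Cnga4 and Cngb1, all 18 were lower in mutants, none was at 0, and their sum was 23437 and 10709 CPM in the controls and 13534 and 3256 CPM in the mutants, with log2 ratios of -0.79 and -1.72. Omp had 223618 and 68581 counts in the controls and 123585 and 13460 in the mutants, with a log2 fold change of -1.35 ± 0.35 (SE, adjusted p = 0.00714, edgeR). Set against Omp, the direction depended on the background of mutant 1. The members had 47.9 counts per 1000 Omp counts in control 1 and 56.5 in mutant 1, and 125.5 in control 2 and 169 in mutant 2. The log2 ratios on this scale were 0.24 and 0.43. With background subtracted, mutant 1 had 46.6 counts per 1000 Omp counts, below control 1, and the ratio was -0.04. The part that the number of mature neurons had in the lower receptor RNA was not tested.

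**Figure D1:**
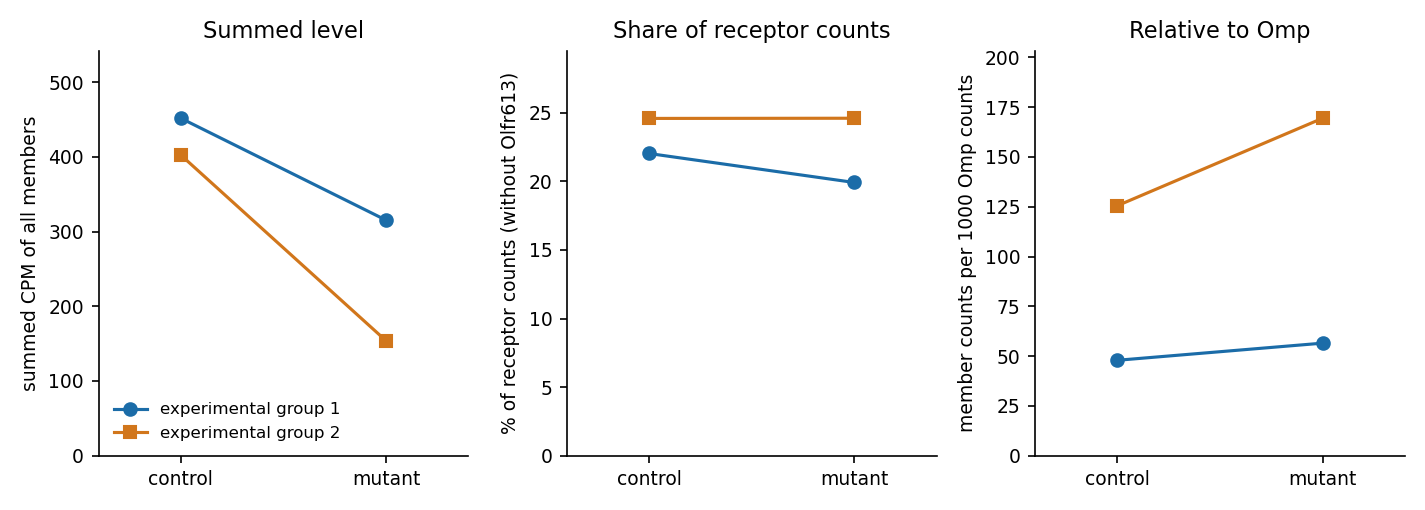
Levels of the 241 receptors in controls and mutants. The left panel plots their summed CPM, the middle panel their percentage of all receptor counts with Olfr613 left out, and the right panel their counts per 1000 Omp counts. Leaving out Olfr613 was chosen after its counts were seen. Each point is 1 mouse and each line joins the control and mutant of an experimental group, with no error bars because each point is a single sample. Summed CPM was lower in the mutant of both groups (452 to 315 and 403 to 154), and counts per 1000 Omp counts, without background subtraction, were higher in the mutant of each.

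The order of the mice by number of members detected depended on depth and background. With 3 counts as the minimum, which is 0.127 to 0.202 CPM here, 188 and 203 members were detected in the controls and 215 and 164 in the mutants. The 2 controls thus lay between the mutants, but with background subtracted mutant 1 had 175, and both mutants lay below both controls. A lower number in mutant 1 was built into the subtraction, since no other library lost counts, so that order is not a result about genotype. Of the 241, 123 were detected in all 4 libraries and 4 in none, and Olfr1055 and Olfr1061 had no count in any library. A further 6 were detected in mutant 1 alone, the library with the raised background. When member reads were thinned to the smallest member total of 2281, the expected number detected was 150 and 153 in the controls and 175 and 164 in the mutants. At this equal depth, with no background subtracted, both mutants lay above both controls.

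Reads were spread over many members. The 10 highest members held 25.7% and 26.4% of member counts in the controls, against 17.8% and 21.5% in the mutants. The highest member differed between all 4 mice. It was Olfr1260 in control 1 (418 counts, 17.6 CPM), Olfr1112 in control 2 (386 counts, 18.1 CPM), Olfr1140 in mutant 1 (186 counts, 8.40 CPM) and Olfr1033 in mutant 2 (74 counts, 4.99 CPM). Per kb of coding sequence and averaged over the 4 mice, Olfr1112 was highest at 11.2 CPM per kb, followed by Olfr1247 at 8.78, Olfr1110 at 7.94, Olfr1222 at 7.58, Olfr1260 at 7.33, Olfr1301 at 6.91, Olfr1226 at 6.55 and Olfr1297 at 6.42. Olfr1112 was also the highest member of the first stretch, and Olfr1301 of the second. Olfr1222 had 93 and 319 counts in the controls and 112 and 65 in the mutants, and its genotype groups overlapped.

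Gene by gene, 11 members were lower in mutants and none was higher. Of the 241 genes, 113 had more than 1 CPM in at least 2 libraries and were tested with a likelihood-ratio test in edgeR, with experimental group as a block and Benjamini-Hochberg adjustment over all 15438 genes tested. The 11 called lower were 9.73% of those tested, against 4.3% of all tested genes, and 6.12% (23 of 376) of the other receptors tested. Higher in mutants were 1.28% of all tested genes and none of the members. At an unadjusted p under 0.05, 30 members were lower and none higher. The median log2 fold change was -0.96 over the members, -0.96 over the other receptors and -0.01 over all tested genes. Because a gene could pass the minimum through the controls alone, the median of members that passed describes those genes and not all 241. The difference between members and other receptors was not tested.

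The number of calls depended on the test. The quasi-likelihood test of edgeR called 3 members lower, Olfr1178, Olfr1301 and Olfr1226 (adjusted p = 0.0247, 0.0385 and 0.0448), or 2.65% of the members tested against 3.21% of all genes under that test. Without the block, none was called, with 23 lower and none higher at an unadjusted p under 0.05, and no gene of any kind was called lower. Leaving out mice in turn, in fits without the block, left no call without control 1, without mutant 1 or without mutant 2, and 1 call (Olfr1260, log2 fold change -3.08) without control 2. Those fits called few genes of any kind lower: 1 without control 1, 1 without mutant 1, 0 without mutant 2 and 5 without control 2. With background taken from mutant 1, 16 of 109 tested members were called lower, all 11 among them, beside 4.27% of all genes tested in that fit. Since mutant 1 alone lost counts, a shift of members towards lower in mutants was partly built into that fit.

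The 3 members called under both tests were well separated by genotype. Olfr1178 had 248 and 127 counts in the controls and 37 and 4 in the mutants. The log2 change came to -3.42 ± 0.66 (SE, n = 2 per genotype, edgeR adjusted p = 0.000112), and no 50-base window of its coding sequence was shared with another gene. For Olfr1301, the leading member of the second stretch, 267, 203, 80 and 22 counts were found in the same order of libraries. Its change was -2.18 ± 0.52 (adjusted p = 0.00224), and it too shared no window. Olfr1226 had 293, 146, 74 and 27 counts and a change of -1.95 ± 0.51 (adjusted p = 0.0068). Its ratios in the 2 experimental groups were nearly equal, at -1.86 and -1.85.

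The other members called lower passed in the likelihood-ratio test and not in the quasi-likelihood test. Olfr1260 had 418 and 116 counts in the controls and 38 and 37 in the mutants (log2 fold change -2.31 ± 0.58, adjusted p = 0.00804). Olfr1112, the most abundant member per kb, had 326, 386, 169 and 48 counts (-1.69 ± 0.44, adjusted p = 0.0086). Olfr1110 had 339, 173, 103 and 40 counts (-1.66 ± 0.46, adjusted p = 0.0121). Both mutants lay below both controls for these 3 genes in CPM. Olfr1241 had 129, 86, 15 and 11 counts (-2.78 ± 0.76, adjusted p = 0.0124), and Olfr1247 had 222, 339, 125 and 33 counts (-1.80 ± 0.52, adjusted p = 0.0262). Olfr1198 had 122, 32, 11 and 3 counts (-3.20 ± 0.96, adjusted p = 0.0277). The controls of Olfr1198 differed more from each other than the mutants did.

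The last 2 called members rested on very few counts in a mutant. Olfr1280 had 52 and 31 counts in the controls and 0 and 1 in the mutants, with an adjusted p of 0.0125 in edgeR, and its fitted fold change is no measure of size at these counts. It shared 40.3% of its coding windows, most often with Olfr1283. Olfr1290 had 127, 80, 46 and 1 counts (-2.97 ± 0.88, adjusted p = 0.047) and shared 32.2% of its windows. Just short of the threshold were Olfr1297, with 234, 170, 66 and 48 counts (-1.57 ± 0.52, adjusted p = 0.0506), and Olfr1264, with 173, 156, 67 and 24 counts (-1.76 ± 0.58, adjusted p = 0.0516), the latter named after its values were seen.

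**Figure D2:**
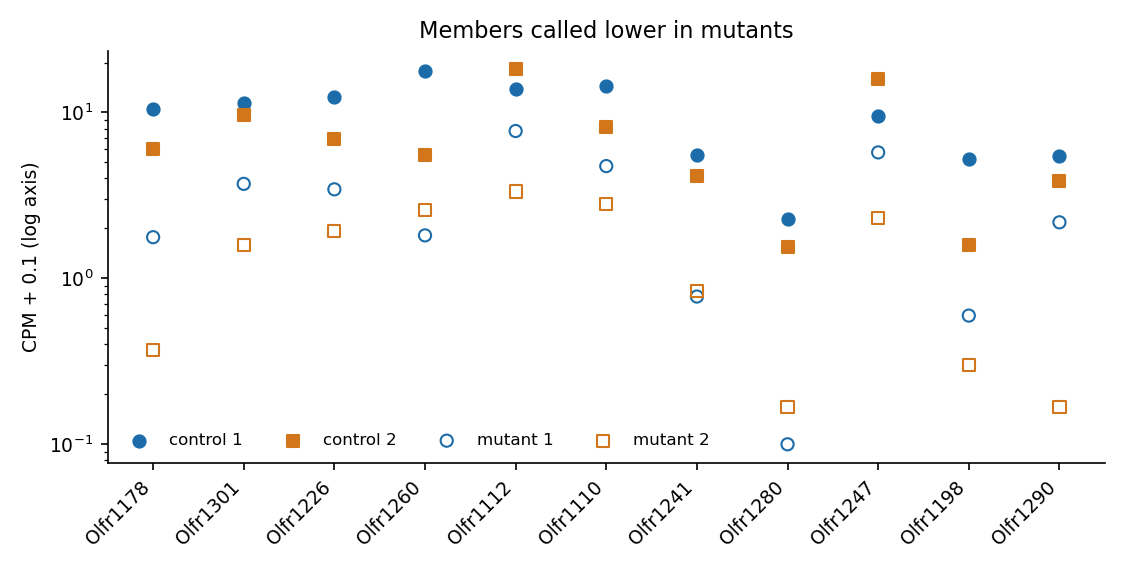
CPM plus 0.1, on a log axis, of the 11 members called lower in mutants, ordered by p. Filled symbols are controls and open symbols mutants, circles are experimental group 1 and squares experimental group 2, and each symbol is 1 mouse. For all 11 genes both mutants sit below both controls, and Olfr1280 has 0 counts in mutant 1.

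Taking the called genes out did not remove the lower sum. The 11 genes summed to 107 and 80.4 CPM in the controls and 31.5 and 15.3 CPM in the mutants. The other 230 members still gave log2 ratios of -0.28 and -1.22. Of the 113 tested members, 94 (83.2%) had a negative log2 fold change, beside 310 of 376 other receptors (82.4%) and 51.1% of all tested genes. In 49 of the 113 (43.4%), both mutants lay below both controls in CPM, against 10.6% of all tested genes. In 1 member both mutants lay above, and the share of all genes in that direction was not taken. These counts carry the same limit, since members could pass the minimum through the controls alone. With no minimum, 149 of 239 members had a negative log2 fold change. Their median was -0.65, against 0.14 over all genes in that fit.

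At the other end, no member was shown to be higher. The highest log2 fold changes were 2.18 ± 1.38 for Olfr1173, 1.38 ± 0.83 for Olfr1109 and 1.09 ± 1.15 for Olfr1106, with adjusted p of 0.6, 0.451 and 0.793 in edgeR. Olfr1109 had 51 and 7 counts in the controls and 112 and 16 in the mutants, higher in the mutant of each experimental group. The 9 counts of Olfr1106 in control 1 stood against 62 in mutant 1, and its 22 in control 2 against 10 in mutant 2. Olfr1173 had 35, 0, 36 and 13 counts, so its fold change came from experimental group 2. Among the lowest fold changes, Olfr1097 followed Olfr1280 and Olfr1178, with 67, 55, 2 and 9 counts and a change of -3.37 ± 1.08 that did not pass (adjusted p = 0.0664).

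The ratios within an experimental group, each of 1 mutant to 1 control with 2 as the prior count, differed between the groups. Over the tested members the medians were -0.52 for group 1 and -1.27 for group 2, and 63 of 113 members were negative in both. Over all 241 members it was 0.08 (-0.29 with background subtracted) and -1.01, with 92 members negative in both, 34 positive in both, 82 up in group 1 and down in group 2, and 16 the other way round. The controls and mutants of the 2 groups are different mice from different litters, and with 4 samples a test of genotype by group could not be made.

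**Figure D3:**
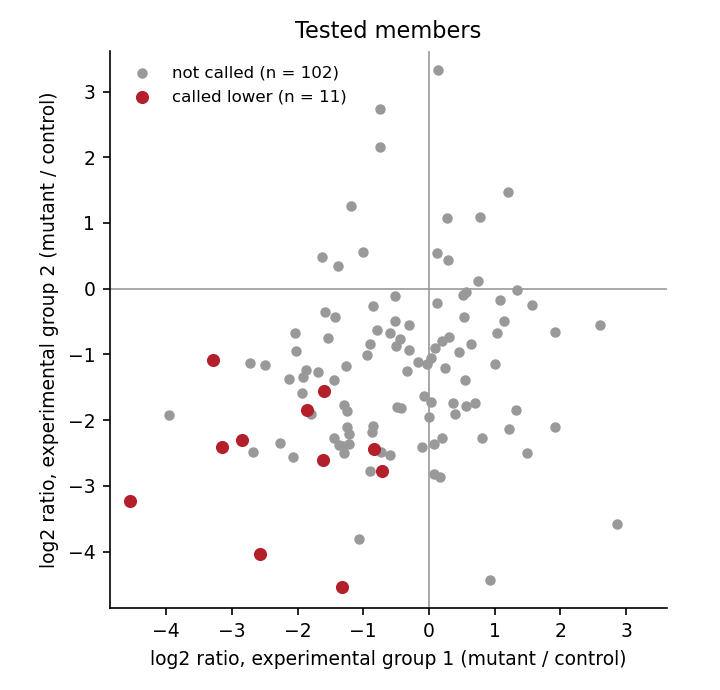
Log2 ratio of mutant to control in experimental group 1 (x axis) and experimental group 2 (y axis) for the 113 tested members, each point 1 gene. Red points are the 11 members called lower in mutants and grey points the other 102. The lower left quadrant holds 63 members and the upper right 7.

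Along the chromosome, the change in experimental group 1 was uneven. In segments of 1 Mb the members starting between 85 and 86 Mb (30 genes) held 28.9 CPM in control 1 and 39.7 CPM in mutant 1 in their sum, or 0.46 as a log2 ratio, and those between 86 and 87 Mb (46 genes) gave -0.07. The ratio was -0.33 from 87 Mb, -0.96 from 88 Mb, -0.72 from 89 Mb and -0.90 from 90 Mb. In experimental group 2 the same segments gave -0.64, -1.17, -1.56, -1.41, -1.61 and -1.59. With background taken from mutant 1, the 6 segments of the first stretch gave 0.25, -0.26, -0.53, -1.41, -1.01 and -1.35 in experimental group 1. The segments from 111 and 112 Mb went from -1.34 and -0.54 to -1.74 and -2.28. The segment from 112 Mb held only 87 counts in control 1 and 56 in mutant 1. Subtraction left 0.75 of its 2.53 CPM in mutant 1, so its second ratio rests on very few counts. The order of segments is a description of 1 mouse pair in each group.

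In the second stretch the comparison of the groups also depended on the background. It summed to 65.9 and 63.5 CPM in the controls and 27.0 and 26.9 CPM in the mutants, with log2 ratios of -1.28 and -1.24. With background subtracted, mutant 1 had 19.4 CPM there and the ratio was -1.76. For the first stretch the sums were 386, 339, 288 and 127 CPM and the ratios -0.42 (-0.68 with background subtracted) and -1.42. Of the 11 called members, 8 were among 100 tested in the first stretch and 3 (Olfr1280, Olfr1290 and Olfr1301) among 13 tested in the second. These were 8% and 23.1% of those tested, against 4.3% of all tested genes called lower. No member starting before 87 Mb was called, of 10 and 19 tested in the first 2 segments. With so few tested and 4.3% called over all genes, this does not set those segments apart. The difference between the stretches was not tested.

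**Figure D4:**
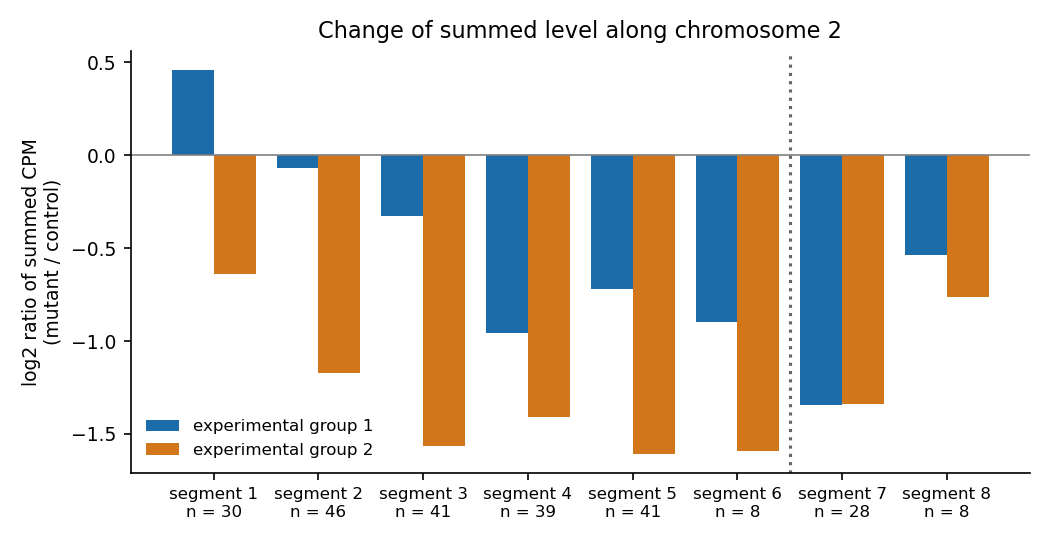
Log2 ratio of summed CPM, mutant to control, in 8 segments of 1 Mb that hold members, in order along the chromosome, with the number of members under each. Blue bars are experimental group 1 and orange bars experimental group 2, the dotted line separates the 2 stretches, and each bar compares 1 mouse with 1 mouse, so no error bar is drawn. No background was subtracted. Segment 1 is the only one with a ratio above 0, 0.46 in experimental group 1.

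Genes at the edges of the cluster did not all move with it. Ptprj and Nup160, beyond the far end of the first stretch, had log2 fold changes of -0.07 ± 0.18 (adjusted p = 0.932, edgeR) and 0.13 ± 0.23 (adjusted p = 0.889). Beyond the second stretch, Lpcat4, a lysophospholipid acyltransferase, fell by 1.16 on the log2 scale (SE 0.20, adjusted p = 3.34e-06), and Nop10, a component of small nucleolar ribonucleoproteins, had a change of 0.02 ± 0.17 (adjusted p = 0.982). Genes named Olfr apart, only 3 coding genes lay inside the first stretch and none inside the second. Of those, 4833423E24Rik was the only one tested, with 68 and 333 counts in the controls and 299 and 295 in the mutants (adjusted p = 0.103).

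Some members separated the experimental groups rather than the genotypes. Between the groups, 12 of 113 tested members were lower in group 2 and 2 were higher, beside 14% and 17.7% of all tested genes. In both directions the share of members lay below that of all tested genes. Of 376 other receptors tested, 78 were lower in group 2 and 2 were higher. Olfr1140 had 161 counts in control 1 and 186 in mutant 1, but 35 in control 2 and 14 in mutant 2, a log2 difference of -2.54 ± 0.62 (group 2 to group 1, adjusted p = 0.000576, edgeR). Olfr1046 had 178 and 110 counts in the control and mutant of group 1, and 35 and 3 in those of group 2 (-3.12 ± 0.74, adjusted p = 0.000578). Olfr1054 had 64 and 60 counts in group 1 and 6 and 0 in group 2, and Olfr1157 132 and 86 against 19 and 9. For Olfr987, 76 counts in control 1 and 30 in mutant 1 stood against 0 in control 2 and 2 in mutant 2, and it shared 46.0% of its coding windows, most often with Olfr988. The reverse was found for Olfr1214, with 10 and 21 counts in group 1 and 146 and 45 in group 2 (2.84 ± 0.80, adjusted p = 0.00567), and Olfr1314, with 0 and 6 against 42 and 18, both named after their values were seen. Parents, sex, age, treatment and batch differ between the groups and cannot be told apart. Alignments that were not unique, which the counting set aside, numbered 67710764 in control 1 and 62182762 in mutant 1. They numbered 10308536 in control 2 and 6757456 in mutant 2. Their part in these differences was not tested.

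Genes that act in receptor choice, trafficking and signalling were listed beside the members. Of 31 such genes, 10 were lower in mutants and none higher. The receptor transport proteins Rtp1 and Rtp2 had log2 fold changes of -1.10 ± 0.26 (adjusted p = 0.00174, edgeR) and -1.08 ± 0.27 (adjusted p = 0.00342). Among signalling genes, Gnal changed by -1.35 ± 0.31, Adcy3 by -1.29 ± 0.28, Ric8b, an exchange factor for Gnal, by -1.16 ± 0.27, and the G protein subunit Gng13 by -0.97 ± 0.25, each past the threshold. The rest of the 10 were Reep1 (-0.84 ± 0.17), Ebf4 (-0.89 ± 0.18), and the stress response genes Eif2ak3 (-0.59 ± 0.19) and Ddit3 (-0.67 ± 0.21). Ebf4 is a transcription factor of the O/E family. Of the same family, Ebf1 (-0.37 ± 0.17), Ebf2 (-0.39 ± 0.22) and Ebf3 (-0.45 ± 0.22) did not pass. Among other genes tied to receptor choice, these did not pass: Lhx2 gave -0.28 ± 0.20 (adjusted p = 0.553), Ldb1 0.16 ± 0.18 (adjusted p = 0.777) and Kdm1a 0.14 ± 0.19 (adjusted p = 0.835). The uncalled genes with the smallest adjusted p in edgeR were Atf5 (-0.77 ± 0.26, adjusted p = 0.0602), Gnb1 (-0.77 ± 0.28, adjusted p = 0.0857) and Cbx5 (0.43 ± 0.18, adjusted p = 0.157). Of these 31 genes, Adcy3, Gnal, Gng13, Ric8b, Rtp1 and Rtp2 are also on the mature neuron list.

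Markers of other cell types were also called. Of 10 immature neuron markers 1 was lower (Dcx, -0.63 ± 0.18, adjusted p = 0.0148, edgeR), and of 8 progenitor markers 4 were higher (Kit, Hes6, Mki67 and Top2a). Horizontal basal cell markers included 2 of 6 that were higher, Krt15 and Egfr. Sustentacular markers summed to 5303 and 13607 CPM in the controls and 6355 and 16507 CPM in the mutants, and none of 6 was called. Their sum differed more between the experimental groups than between the genotypes. Within each group it was higher in the mutant, with log2 ratios of 0.26 and 0.28. Leukocyte markers summed to 100 CPM in control 1 and 16.7 to 36.9 CPM in the other 3. Glial markers likewise summed to 79.0 CPM in control 1 and 31.7 to 39.2 CPM in the others, and no marker of either list was called. All 3 ciliated respiratory markers measured were lower, and 1 of 4 gland markers (Bpifb9a) was higher. The part of these cell types in the receptor levels was not tested.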

How the data were processed

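The authors removed rRNA reads with Bowtie2 2.0.6, quality filtered, aligned the single-end reads with TopHat2 2.0.7 to mm10, and counted them per gene with HTSeq (intersection-nonempty), as the paper's methods and the submitters' processing notes state. The annotation and strand setting are not given in the sources used here. The deposited values are raw counts per gene, and the 5 tally lines were left out. Depth was 14833396 to 23704638 counts.

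Members, lists and tests were chosen with earlier results of these data known. Genes with CPM above 1 in at least 2 samples were tested in edgeR 4.0.16 (R 4.3.3) with TMM factors and a likelihood-ratio test, two-sided, threshold 0.05, experimental group as block. The replicate number is the experimental group in the labels, which pairs the samples. Deviations from genotype means correlated across genes (r = 0.52) for the same number. SEs are Wald errors. Alternatives included DESeq2 1.42.0.

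Named members were those called, the 8 highest per kb, the highest per library and per stretch, the 3 highest and 3 lowest fold changes, and the 5 smallest p for experimental group. The conserved stretches of the remaining called members are not reported here.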

Additional observations from a re-analysis of the deposited data

Results flagged for a closer look

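Mutant 1 held reads outside genes at 39.41% of uniquely aligned reads, above both controls (23.8% and 24.9%), in a tally that no comparison used. Several ratios pointed opposite ways in the 2 experimental groups, and none of these differences was tested, since each rests on 1 mutant and 1 control per group. Members starting between 85 and 86 Mb gave a log2 ratio of summed CPM that was 0.46 in the first group and -0.64 in the second. Over all 241 members the median log2 ratio was 0.077 and -1.01, and with background subtracted from mutant 1 the first of these was -0.29, so the directions were then the same. Among single members, Olfr1106 gave 2.60 and -0.55, Olfr1222 0.36 and -1.75, Olfr1140 0.30 and -0.74, Olfr1054 0.0047 and -1.96, and Olfr987 -1.19 and 1.25.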

How the results depend on the processing

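The count of members called lower was 11. It was 3 with the quasi-likelihood test, 0 without the replicate block and 0 with the receptor total as library size, a scaling that put the median of all tested genes at 0.75 and that of the members at -0.21. It ran from 0 to 1 when each mouse was left out, and the members' median then ran from -1.43 to -0.62, while each experimental group alone gave -0.52 and -1.27. DESeq2 filtered out every tested member before adjustment and so gave no count, with 25 lower and 0 higher at an unadjusted p under 0.05. The count called lower was 10 to 16 under the other alternatives, and no member was called higher under any. The genes were not always the same. Without a filter, 8 of the 10 called were among the 11. With CPM above 1 required in all 4 samples, 31 members were tested, and 6 of the 10 called were among the 11. The pairing by replicate block changed the receptor expression genes too, from 10 called to 0 without it. Members differing between experimental groups were 14, and 9 by the quasi-likelihood test.

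The summed log2 ratio in experimental group 1 was -0.61 with TMM factors, -0.60 with RLE factors, -0.42 against the receptor total, -0.15 without Olfr613 in that total, -0.43 without the 5 highest members and -0.80 with background subtracted. In experimental group 2 it was -0.087 against the receptor total, 0.00081 without Olfr613 in it, and -1.29 without the 5 highest members. With background also subtracted, group 1 gave -0.17 against the receptor total without Olfr613 and -0.040 per 1000 Omp counts, and its median over all 241 members went from 0.077 to -0.29. Without subtraction it reversed per 1000 Omp counts (0.24 and 0.43) and per 1000 CPM of mature neuron markers (0.27 and 0.33). At a minimum of 10 counts, 85 members were detected in mutant 2.

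Single members that were not called for genotype changed sign. Olfr987 gave 0.35 with DESeq2, 0.15 without a filter and 0.61 with the receptor total as library size. Olfr1140 gave 0.070 without the block and 0.45 with the receptor total, and Olfr1157 0.11 with that total. With a mouse or an experimental group left out, the log2 change ran from -2.11 to 1.25 for Olfr987, -4.49 to 0.61 for Olfr1046, -1.96 to 0.81 for Olfr1054, -0.55 to 2.60 for Olfr1106, -0.24 to 3.16 for Olfr1109, -2.19 to 1.46 for Olfr1140, -1.33 to 0.21 for Olfr1157, -0.26 to 3.32 for Olfr1173 and -1.75 to 0.36 for Olfr1222. The cause was not tested. With 2 mice per genotype and 2281 member counts in mutant 2, small changes of single members were not detectable.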
